A study of Schmidtea mediterranea with 2 samples.

Results

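The genes described here are the 100 most enriched in a class of cells that was present in the control library and absent from the foxA library of single cells from planarian trunks. The class is marked by the transcript SMESG000043649.1. In the control library, unique molecular identifiers (UMIs, each counting 1 captured transcript) were summed over the cells with at least 5 UMIs of this marker, called positive cells here, and over the cells with 0. Each sum was scaled to counts per 1000000 (CPM), 10 was added, and genes were ranked by the ratio of positive to zero cells. The 100 genes of highest ratio were taken out of 10524 genes with at least 50 control UMIs, among 22016 features in all. The values that chose these genes come from the control library, so they are given as a description and nothing is tested on them.

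Schmidtea mediterranea is a freshwater flatworm that renews and regenerates its tissues from stem cells. Both libraries came from the trunk region of animals of the genotype given as CIW4. The control library came from animals given control RNA interference (RNAi), and the other from animals in which foxA was targeted by RNAi. Trunks of 50 animals were pooled per condition, and live nucleated cells were sorted before droplet capture, so animals cannot be separated within a library. There was 1 library per condition. No test between conditions was therefore possible, no p-value is given, and every interval is an exact 95% interval for counting error alone.

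FoxA proteins are forkhead transcription factors, which bind DNA and in many animals act in the formation of the foregut and the gut. In planarians, foxA is known for its expression in stem cells and progenitors of the pharynx, the muscular feeding tube of the trunk, and animals depleted of it fail to maintain or rebuild that organ. RNAi lowers a gene by degrading its transcripts. The files give no gene names, so no function is assigned to any of the 100 genes, and the cell classes have no cell type names. For the same reason foxA could not be looked up by name, and its depletion is not described.

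After cells with fewer than 200 detected genes were removed, the control library held 5978 cells with a median of 563 UMIs and the foxA library 6781 cells with a median of 904 UMIs. The control library had 91 positive cells, a share of 1.52% (1.23% to 1.87%), 5817 cells with 0 marker UMIs and 70 cells with 1 to 4, which entered neither sum. The foxA library had 0 positive cells, which allows a share of up to 0.0442%, and 0 UMIs of the marker in all deposited cells. A further 11 of the 78 control cells removed for few genes were positive, and they held 753 marker UMIs. The cell barcodes of 13 cells occurred in both libraries, and none of these cells was positive.

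Positive cells had a median of 43 marker UMIs and at most 299. Together the 91 cells held 72310 UMIs, of which the 4 top-ranked genes made up 13.9%. SMESG000043649.1 had 82368 CPM in positive cells and, by definition, 0 in zero cells. SMESG000065348.1, ranked second, had 35099 CPM in positive cells and 5.52 CPM in zero cells. SMESG000065355.1 had 11395 and 1.92 CPM, and SMESG000065349.1 had 10469 and 1.20 CPM. These transcripts were abundant in the class and rare in zero cells, as the selection requires.

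The next 4 genes were also concentrated in positive cells. SMESG000011859.1 had 4190 CPM in positive cells and 2.40 CPM in zero cells, SMESG000043644.1 had 3748 and 1.92 CPM, SMESG000024590.1 had 1812 and 7.93 CPM, and SMESG000065350.1 had 940.4 and 0.480 CPM. From rank 9 the contrast was smaller. SMESG000005286.1 had 3457 CPM in positive and 64.6 CPM in zero cells, and SMESG000009878.1 had 664 and 6.97 CPM. 4 of the first 8 identifiers run from SMESG000065348.1 to SMESG000065355.1, and whether these are neighbouring copies that share reads was not analysed here.

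The ranking ratio ran from 8238 for the marker through a median of 8.17 to 5.28 at rank 100. The last genes inside the list were SMESG000079760.1 with a ratio of 5.31 and SMESG000038398.1 with 5.28, and the first outside were SMESG000039123.1 with 5.26 and SMESG000044681.1 with 5.24. The lower part of the list rests on few molecules. Of the 100 genes, 41 had fewer than 20 UMIs in positive cells, and SMESG000038398.1 had 12 (6.20 to 21.0). The median gene was detected in 18 of the 91 positive cells, and 10 genes were detected in fewer than 10.

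In the foxA library the 100 genes had 3 different fates. A gene is called lost where its CPM was at least 10-fold lower than in the control library, reduced where it was 2-fold to 10-fold lower, and persistent where it was less than 2-fold lower or was higher. By this rule of size 16 genes were lost, 21 were reduced and 63 persisted. Over all 10524 genes the shares were 0.542% lost, 2.8% reduced and 96.7% persistent. The median log2 ratio of foxA to control CPM was -0.57 for the list and 0.07 for all genes tested. Of the 16 lost genes, 8 had 0 UMIs in the foxA library, against 0.181% of all genes. Enrichment in the lost cells thus did not by itself mean loss: most of the list was still measured at more than 0.5 of its control level. The selection used the control levels, so no weight is put on these differences from the background.

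**Figure D1:**
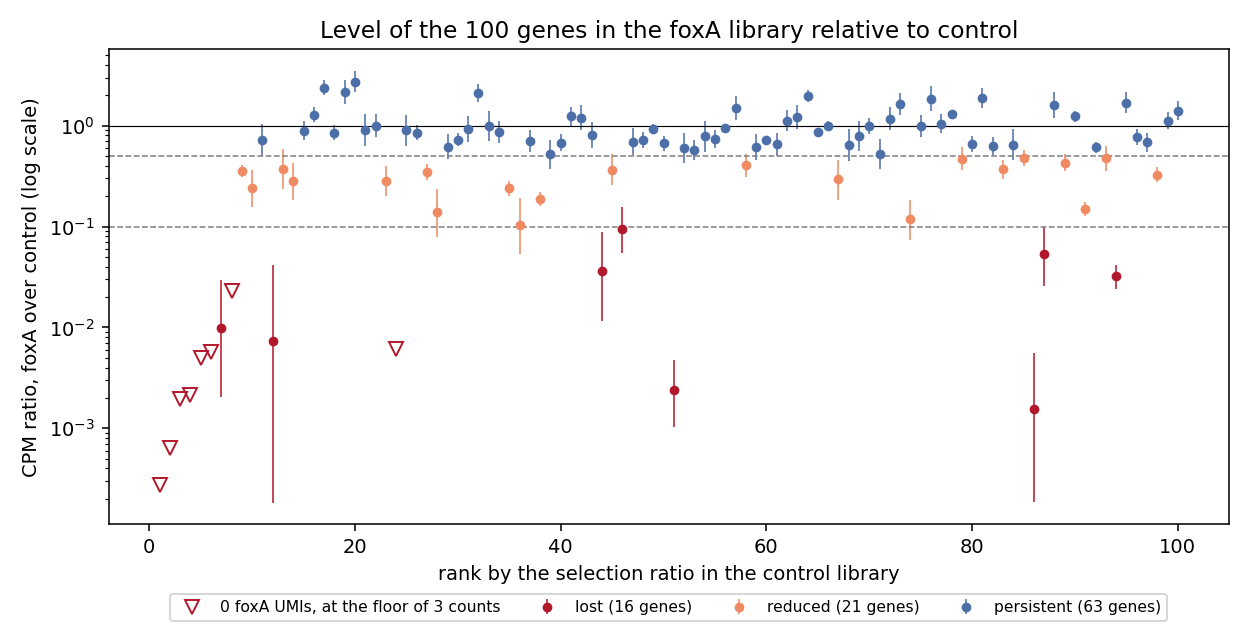
Each point is 1 of the 100 genes, ordered by rank in the selection (horizontal axis), with the ratio of its foxA to its control CPM on a log axis; bars are exact 95% counting intervals, and open triangles mark 8 genes with 0 foxA UMIs, drawn at the floor of 3 counts. Dashed lines mark ratios of 0.1 and 0.5: the first 8 ranks are all lost, and from rank 9 on lost, reduced and persistent genes are mixed.

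The first set of lost genes comprised 9 genes with at least 50% of their control UMIs in positive cells, a division made after the values were seen. It held ranks 1 to 8 and SMESG000059290.1 at rank 12. SMESG000043649.1 had 6057 control UMIs (1410 CPM) and 0 foxA UMIs. SMESG000065348.1 had 2576 control UMIs (599.6 CPM) and 0 foxA UMIs. SMESG000065355.1 and SMESG000065349.1 had 839 and 768 control UMIs and 0 foxA UMIs each. A foxA count of 0, taken to allow 3 counts, places these 4 genes at least 3685-fold, 1567-fold, 510-fold and 467-fold lower.

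The same held for the less abundant genes of this set. SMESG000011859.1 had 327 control UMIs and was at least 199-fold lower. SMESG000043644.1 had 285 control UMIs and was at least 173-fold lower, and SMESG000065350.1 had 71 and was at least 43.2-fold lower. SMESG000024590.1 went from 165 UMIs to 3, all in 1 foxA cell, a ratio of 0.00996 (0.00203 to 0.0296). SMESG000059290.1 went from 75 UMIs to 1, a ratio of 0.00731 (0.000183 to 0.0420). In all, 7 of the 9 genes had no UMI in the foxA library.

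Within the positive cells these genes varied together. The UMIs per total of SMESG000065348.1 and of the marker had a Spearman correlation of 0.81 over the 91 cells, and those of SMESG000065355.1 and SMESG000065349.1 one of 0.89. The lowest among the first 6 genes was 0.36, between SMESG000043644.1 and SMESG000011859.1. These are descriptions: all the points are cells of 1 library that were picked by the marker. The 91 cells also came from more than 1 cell group, as described below, and the part of that mix in the correlations was not tested.

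The second set of lost genes comprised 7 genes with 9.13% to 20% of their control UMIs in positive cells. SMESG000074377.1 had 1824 UMIs (425 CPM) in the control library and 8 (1.02 CPM) in the foxA library, a ratio of 0.00240 (0.00104 to 0.00475). SMESG000033462.1 had 942 control UMIs (219 CPM) and 55 foxA UMIs (7.01 CPM), and SMESG000015390.1 had 712 (166 CPM) and 2 (0.255 CPM). SMESG000046770.1 had 269 control UMIs and 0 foxA UMIs, at least 164-fold lower. The remaining 3 were 10.5-fold to 27.4-fold lower. Most control transcripts of these genes thus lay in cells that lacked the marker, and they were lost all the same.

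Clustering of all cells by expression placed most UMIs of the second set in another group of control cells. Among 28 clusters, numbered by size, 2 clusters of at least 30 control cells had at most 1 foxA cell. Cluster 25, led by the marker, had 95 control cells and 0 foxA cells, and it held 76 of the 91 positive cells. Cluster 15, led by SMESG000036225.1 and SMESG000033673.1, had 234 control cells and 1 foxA cell. It held 11 positive cells, with a median of 9 marker UMIs against 66 in the positive cells of cluster 25, and 215 cells with no marker UMI.

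The share of control UMIs in cluster 15 was 88.2% for SMESG000074377.1, 89.5% for SMESG000033462.1, 92.7% for SMESG000015390.1 and 96.7% for SMESG000046770.1. It was 70.2% for SMESG000006950.1, 54.7% for SMESG000014715.1 and 33.6% for SMESG000065670.1, which were named after their values were seen. SMESG000065670.1 had 46.0% of its control UMIs in clusters 25 and 15 together, so most of them lay in other cells. Of the 146 control cells with at least 5 UMIs of SMESG000074377.1, 137 were in cluster 15, 7 in cluster 25, and 12 were positive for the marker. None of the 68 cells with at least 5 UMIs of SMESG000065348.1 was in cluster 15, and 66 were in cluster 25. The list thus held genes of both clusters. For SMESG000033462.1, 46 of its 86 UMIs in positive cells lay in 1 cell, and only 5 positive cells had any. Its place in the list therefore rests on few cells. SMESG000046770.1 had 0 UMIs in cluster 25, so it entered the list through the positive cells of cluster 15. In all, 3 genes had over 50% of their UMIs in positive cells there. The others were SMESG000009877.1, a persistent gene with 18 of 19, and SMESG000015390.1 with 34 of 65. When positive cells were limited to cluster 25, 88 of the 100 genes were kept and 12 of the 16 lost genes were among them.

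**Figure D2:**
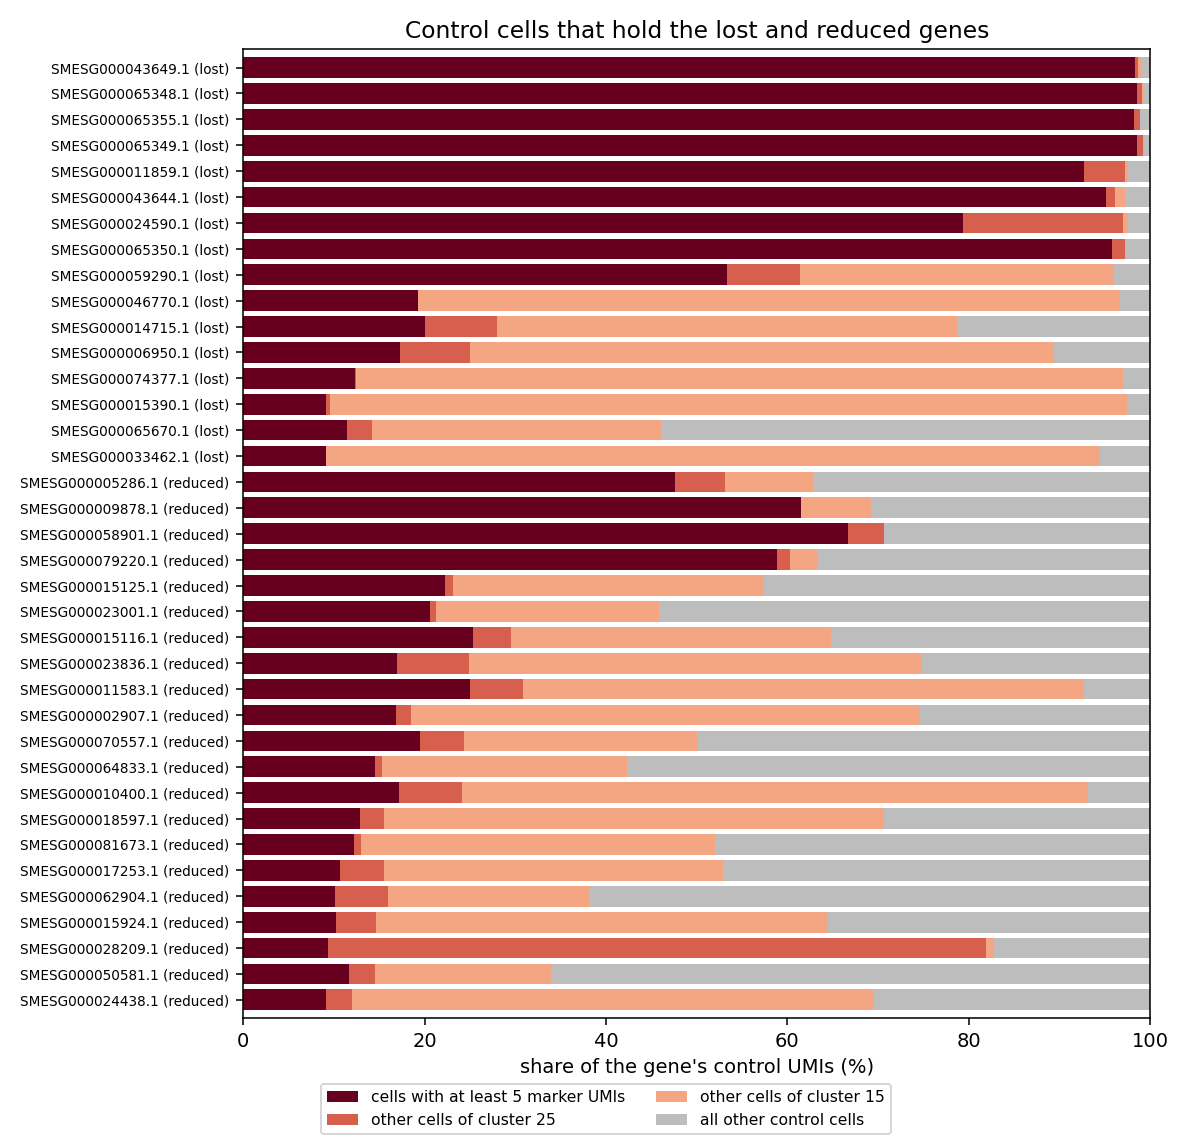
Each bar is a lost or reduced gene and shows the share of its control UMIs (%) held by positive cells, by the other cells of clusters 25 and 15, and by all other control cells. The first 8 lost genes lie mainly in positive cells, SMESG000074377.1, SMESG000033462.1, SMESG000015390.1 and SMESG000046770.1 mainly in the other cells of cluster 15, and SMESG000028209.1 in cells of cluster 25 that lack the marker.

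The foxA UMIs of 2 lost genes of the second set came mainly from 1 cell of cluster 15. The only foxA cell of cluster 15, with 2592 UMIs, held 53 of the 55 foxA UMIs of SMESG000033462.1 and 6 of the 8 of SMESG000074377.1. Without this cell, SMESG000033462.1 was 859-fold lower than in the control library in place of 31.3-fold, and SMESG000074377.1 1664-fold in place of 416-fold. The cell held 0 UMIs of the marker.

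The cells with 1 to 4 marker UMIs, which the selection did not use, gave intermediate levels. The 8 genes of the first lost set other than the marker had a median of 2.16 CPM in cells with 0 marker UMIs, 108 CPM in cells with 1 to 4 and 4995 CPM in cells with 20 or more. For the second set the medians were 45.4, 66.4 and 231 CPM, with the highest value, 2329 CPM, in the 18 cells with 5 to 9 marker UMIs, of which 7 were in cluster 15. Of the 99 genes other than the marker, 80 were higher in cells with 1 to 4 marker UMIs than in cells with 0, against 44.8% of all genes, and 97 were lower there than in positive cells, against 33.7%. The levels they are compared with chose the genes, so nothing is read from these counts. Of the 70 cells with 1 to 4 UMIs, 8 were in cluster 25 and 8 in cluster 15.

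**Figure D3:**
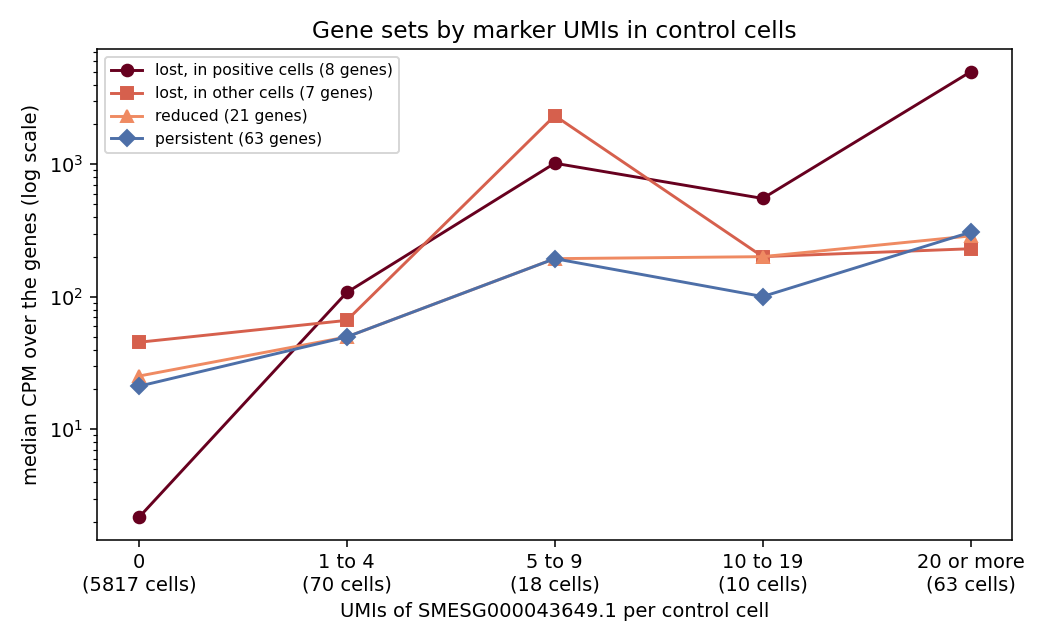
Control cells are grouped by their UMIs of SMESG000043649.1 (horizontal axis, with the number of cells), and each line gives the median CPM, on a log axis, over the genes of 1 set, the marker itself left out. The first lost set goes from 2.16 CPM at 0 UMIs to 4995 CPM at 20 or more, while the second peaks at 5 to 9 UMIs; the 2 middle groups hold only 18 and 10 cells.

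Outside clusters 25 and 15 the control library held 150 UMIs of the marker, of which 87 lay in 4 positive cells. The other 5645 cells there held 63 marker UMIs (48.4 to 80.6), spread over 54 cells. In the same cells SMESG000065348.1 had 22 UMIs, SMESG000065355.1 had 10 and SMESG000065349.1 had 5. SMESG000074377.1 had 55 UMIs there, in 28 cells. Whether free RNA carried these UMIs was not tested.

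The 21 reduced genes lay between these extremes, with foxA to control ratios of 0.105 to 0.480. They had a median of 17.0% of their control UMIs in positive cells and 64.4% in clusters 25 and 15 taken as a unit. SMESG000005286.1 had 525 control UMIs (122 CPM) and 342 foxA UMIs (43.6 CPM), a ratio of 0.357 (0.311 to 0.410). SMESG000002907.1 went from 621 UMIs (145 CPM) to 211 UMIs (26.9 CPM), a ratio of 0.186 (0.158 to 0.218). SMESG000023836.1 went from 501 UMIs (117 CPM) to 218 (27.8 CPM), a ratio of 0.238 (0.202 to 0.280). The intervals of all 21 ratios lay below 1.

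The reduced genes were also set against control cells outside clusters 25 and 15, a reference chosen after the data were seen. Leaving out clusters in which these genes were chosen to be high lowers the reference and moves their ratios up. Nothing is therefore read from how close the foxA level came to it. Of the 21 genes, 18 were within 2-fold of it, 2 were at least 2-fold lower and 1 was at least 2-fold higher. The lower ones were SMESG000015116.1 at 0.372 (0.191 to 0.709) and SMESG000018597.1 at 0.380 (0.217 to 0.655). The higher one was SMESG000010400.1 at 4.0 (1.41 to 15.6), with 31 foxA UMIs. These 3 were named after their values were seen. Over all genes, 2.66% were at least 2-fold lower and 1.19% at least 2-fold higher in the same comparison. SMESG000005286.1 stood at a ratio of 0.892 (0.746 to 1.07), SMESG000023836.1 at 0.879 (0.704 to 1.10) and SMESG000002907.1 at 0.672 (0.545 to 0.830). The interval spanned 1 in 11 of the 21 genes and lay below 1 in 9.

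Against all control cells with 0 marker UMIs, which include 215 cells of cluster 15, 30 of the 100 genes fell short of the reference by 2-fold or more in the foxA library and 8 exceeded it by 2-fold or more. The shares over all genes were 3.33% and 1.23%. With clusters 25 and 15 left out of the reference the counts were 16 lower and 11 higher. The 16 were 14 lost and 2 reduced genes. The other 2 lost genes were within 2-fold, SMESG000033462.1 at 0.546 (0.367 to 0.814) and SMESG000006950.1 at 0.845 (0.378 to 1.98). The value of SMESG000033462.1 rests on the single foxA cell of cluster 15, a cluster that this reference leaves out. With that cell left out too, 2 of its foxA UMIs remained, its ratio was 0.0199 (0.00234 to 0.0755), and 15 lost genes were lower. The selection used the levels in zero cells, so these counts are descriptions. Fewer cells of a type and less RNA per cell cannot be told apart in such sums over a library.

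**Figure D4:**
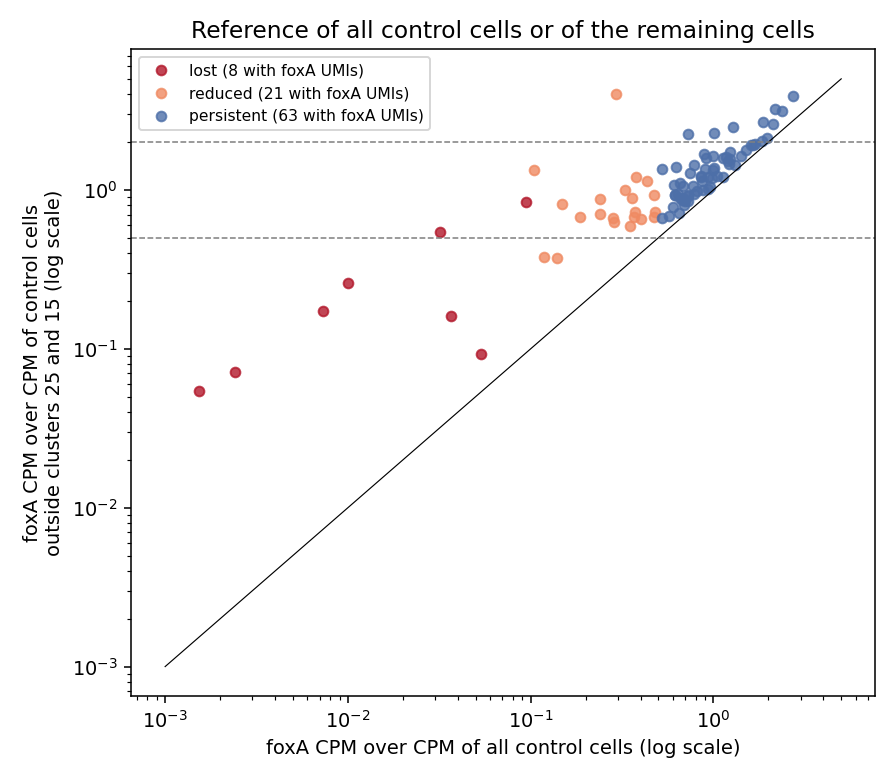
For the 92 genes with foxA UMIs, the ratio of foxA CPM to the CPM of all control cells (horizontal axis) is set against the ratio to control cells outside clusters 25 and 15 (vertical axis), both on log axes; the solid line marks equality and dashed lines 0.5 and 2. All points lie above the solid line or near it, 18 of 21 reduced genes lie between the dashed lines, and 6 of the 8 lost genes with foxA UMIs lie below them. SMESG000033462.1, at 0.546, would lie at 0.0199 without 1 foxA cell of cluster 15.

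SMESG000005286.1 shows how a reduced gene was shared with other cells. In cluster 25 it had 3696 CPM. In the control library it also had 1001 CPM in cluster 12, led by SMESG000042051.1, 1075 CPM in cluster 18, led by SMESG000069765.1, and 429 CPM in cluster 13, led by SMESG000019976.1. In the foxA library the same 3 clusters had 1059, 924 and 425 CPM. Its level in each of these 3 clusters was therefore within 1.5-fold between the libraries.

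SMESG000028209.1 had a pattern of its own within cluster 25. Of its 701 control UMIs, 574 lay in that cluster and 508 of these in 19 cells with fewer than 5 marker UMIs. It had at least 5 UMIs in 12 control cells. Of these, 11 were in cluster 25 and 1 was positive for the marker. The 66 UMIs that placed it in the list all came from that single positive cell. In the foxA library it had 191 UMIs (24.4 CPM against 163 CPM in the control library), spread so that 0 cells had 5 or more.

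The 63 persistent genes had foxA to control ratios of 0.520 to 2.71, with a median of 0.899. The interval lay below 1 for 23 genes, spanned 1 for 24 and lay above 1 for 16. Of all 10172 persistent genes, the interval lay below 1 for 15.3% and above 1 for 28.1%. A median of 15.2% of their control UMIs lay in positive cells, beside 12.4% for the second lost set and 17.0% for the reduced genes. In clusters 25 and 15 lay a median of 27.8%, beside 64.4% for the reduced genes. A gene held mainly by these clusters can hardly persist by the rule of size, so that difference is partly given by the definition. Against control cells outside these clusters, 53 were within 2-fold, 10 were at least 2-fold higher and 0 were at least 2-fold lower, beside 1.19% higher and 2.66% lower over all genes. Leaving out clusters in which these genes were chosen to be high lowers the reference, so nothing is read from the count of 0.

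The cells with the highest levels of the persistent genes in the foxA library were located by cluster. Placement goes by level, so a placed gene can have most of its UMIs in other clusters. A gene was placed in the cluster with its highest foxA CPM if that was at least 3-fold the CPM of all other foxA cells, among clusters with at least 30 foxA cells and 20 UMIs of the gene. This placed 59 of the 63 genes, against 49.1% of all 10172 persistent genes of the series. More of the listed genes were thus placed at all, which by itself raises their shares per cluster. A higher share in a cluster is therefore not by itself a preference for it. In 41 of the 59 the same cluster was also the highest in the control library, apart from clusters 25 and 15. The same share over all placed persistent genes is not given here. Both libraries were clustered together with these genes available, so nothing is read from this count. The genes fell into 13 clusters, so no single cell group held the persistent part of the list.

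Cluster 4, led by SMESG000075230.1, took 11 of the 63 genes (17.5%, against 6.41% of all persistent genes). SMESG000005978.1 had 945 CPM in cluster 25 and 1745 CPM in cluster 4 of the control library. In the foxA library it had 1899 CPM in cluster 4, 261-fold the level of all other cells, and 810 of its 864 foxA UMIs lay there. Its overall ratio was 0.936 (0.837 to 1.05). SMESG000079760.1, at rank 99, was also placed in cluster 4, with 192 control CPM and 209 foxA CPM.

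Cluster 12, led by SMESG000042051.1, took 10 genes (15.9%, against 1.32% of all persistent genes). SMESG000064593.1 had 1799 CPM there in the control and 1715 CPM in the foxA library, with further UMIs in clusters 23, 16 and 5. SMESG000052123.1 had 329 and 495 CPM there. Cluster 18, led by SMESG000069765.1, took 5 genes (7.94%, against 2.15%). Among them SMESG000025889.1, with 3865 foxA UMIs the most abundant persistent gene, had 3250 control CPM and 3246 foxA CPM in that cluster, and also 2427 CPM in cluster 25. Only 260 of its foxA UMIs lay in cluster 18, and in the control library its level was higher in cluster 19, at 4409 CPM. SMESG000070273.1 had 998 and 1311 CPM in cluster 18, and SMESG000070967.1 had 1203 and 1261 CPM.

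Clusters 19, 16 and 11 took 9, 5 and 7 genes (14.3%, 7.94% and 11.1%). Cluster 19 is led by SMESG000017804.1, cluster 16 by SMESG000066414.1 and cluster 11 by SMESG000073666.1. Their shares of all persistent genes were 3.37%, 1.45% and 0.895%. The 4 genes at least 2-fold higher in the foxA library, against 1.19% of all genes, were all placed in cluster 19 or 16.

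SMESG000055733.1 went from 82 UMIs (19.1 CPM) to 406 UMIs (51.8 CPM), a ratio of 2.71 (2.14 to 3.48). In cluster 19 it had 648 CPM in the control and 716 CPM in the foxA library, and in cluster 16 it had 327 and 648 CPM. SMESG000056430.1 went from 165 to 715 UMIs, a ratio of 2.37 (2.00 to 2.83), with 893 CPM in the control and 1457 CPM in the foxA cells of cluster 16. SMESG000065921.1 had a ratio of 2.16 (1.65 to 2.86) and SMESG000052600.1 one of 2.11 (1.72 to 2.60). In cluster 16 SMESG000065921.1 had 545 control CPM from 25 UMIs and 347 foxA CPM from 54 UMIs. The control levels in cluster 19 rest on 20 cells and few molecules: SMESG000055733.1 had 10 UMIs there, and SMESG000065921.1 had 6 UMIs (389 CPM) against 96 foxA UMIs (488 CPM).

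The cells of these clusters were more frequent in the foxA library. Cluster 19 had 20 control cells (0.335%) and 127 foxA cells (1.87%), cluster 16 had 65 (1.09%) and 131 (1.93%), and cluster 11 had 132 (2.21%) and 203 (2.99%). Depth per cell was also higher in the foxA library. The part of cell number and depth in the higher levels of these genes was not tested.

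Other genes of these clusters had smaller ratios. SMESG000050216.1 went from 287 to 1033 UMIs, a ratio of 1.97 (1.73 to 2.26), and in cluster 11 it had 1769 CPM in the control and 1800 CPM in the foxA library. SMESG000022750.1 had an overall ratio of 1.83 (1.39 to 2.45), with 350 and 320 CPM in cluster 11. SMESG000065363.1 had a ratio of 1.24 (1.09 to 1.41), with 161 and 436 CPM in cluster 11, and SMESG000038398.1, at rank 100, one of 1.41 (1.13 to 1.76). Within cluster 19 SMESG000038398.1 had 6 control UMIs (389 CPM) and 59 foxA UMIs (299.7 CPM).

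The remaining genes were placed singly or in small numbers. Cluster 5, led by SMESG000002628.1, took 4 genes (6.35%, against 2.99% of all persistent genes). SMESG000033732.1 had 191 CPM there in the control and 287 CPM in the foxA library. Cluster 23, led by SMESG000024741.1 and taking 1.37% of all persistent genes, took SMESG000041937.1, with 2901 and 3360 CPM, and SMESG000004219.1, with 280 and 528 CPM. Of their foxA UMIs, 229 of 2889 and 36 of 259 lay there. SMESG000022082.1 was placed in cluster 8, led by SMESG000056451.1, with 177 and 189 CPM.

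The 3 genes that follow were named after their values were seen, and the first 2 of them had nearly all foxA UMIs in a single cluster. SMESG000050443.1 had 116 of its 117 foxA UMIs in cluster 14, led by SMESG000040790.1, with 546 control CPM and 621 foxA CPM. Few cells carried it: 4 foxA cells had any UMI, 48 foxA UMIs (41.0%) lay in the highest of them, and 32 of its 79 control UMIs (40.5%) lay in 1 cell. SMESG000009877.1 had 210 of its 212 foxA UMIs in cluster 5. In the control library it had 599 CPM in cluster 15 and 263 CPM in cluster 5, but 14.1 CPM in cluster 25. SMESG000066926.1, at rank 11, had 67.9% of its control UMIs in positive cells, a share as high as in some lost genes. It had 56 control and 74 foxA UMIs, and its foxA UMIs lay in several clusters, with 33 in cluster 19, 18 in cluster 5 and 16 in cluster 12. The control library had 0, 8 and 8 UMIs in these clusters.

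Others were not concentrated in any remaining cluster. SMESG000024335.1 had 2766 CPM in positive cells, but its highest level in a foxA cluster was 695 CPM, in cluster 24, only 1.89-fold that of all other foxA cells. Over the whole library it had 1661 control UMIs (387 CPM), 2908 foxA UMIs (371 CPM) at a ratio of 0.959 (0.903 to 1.02).

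**Figure D5:**
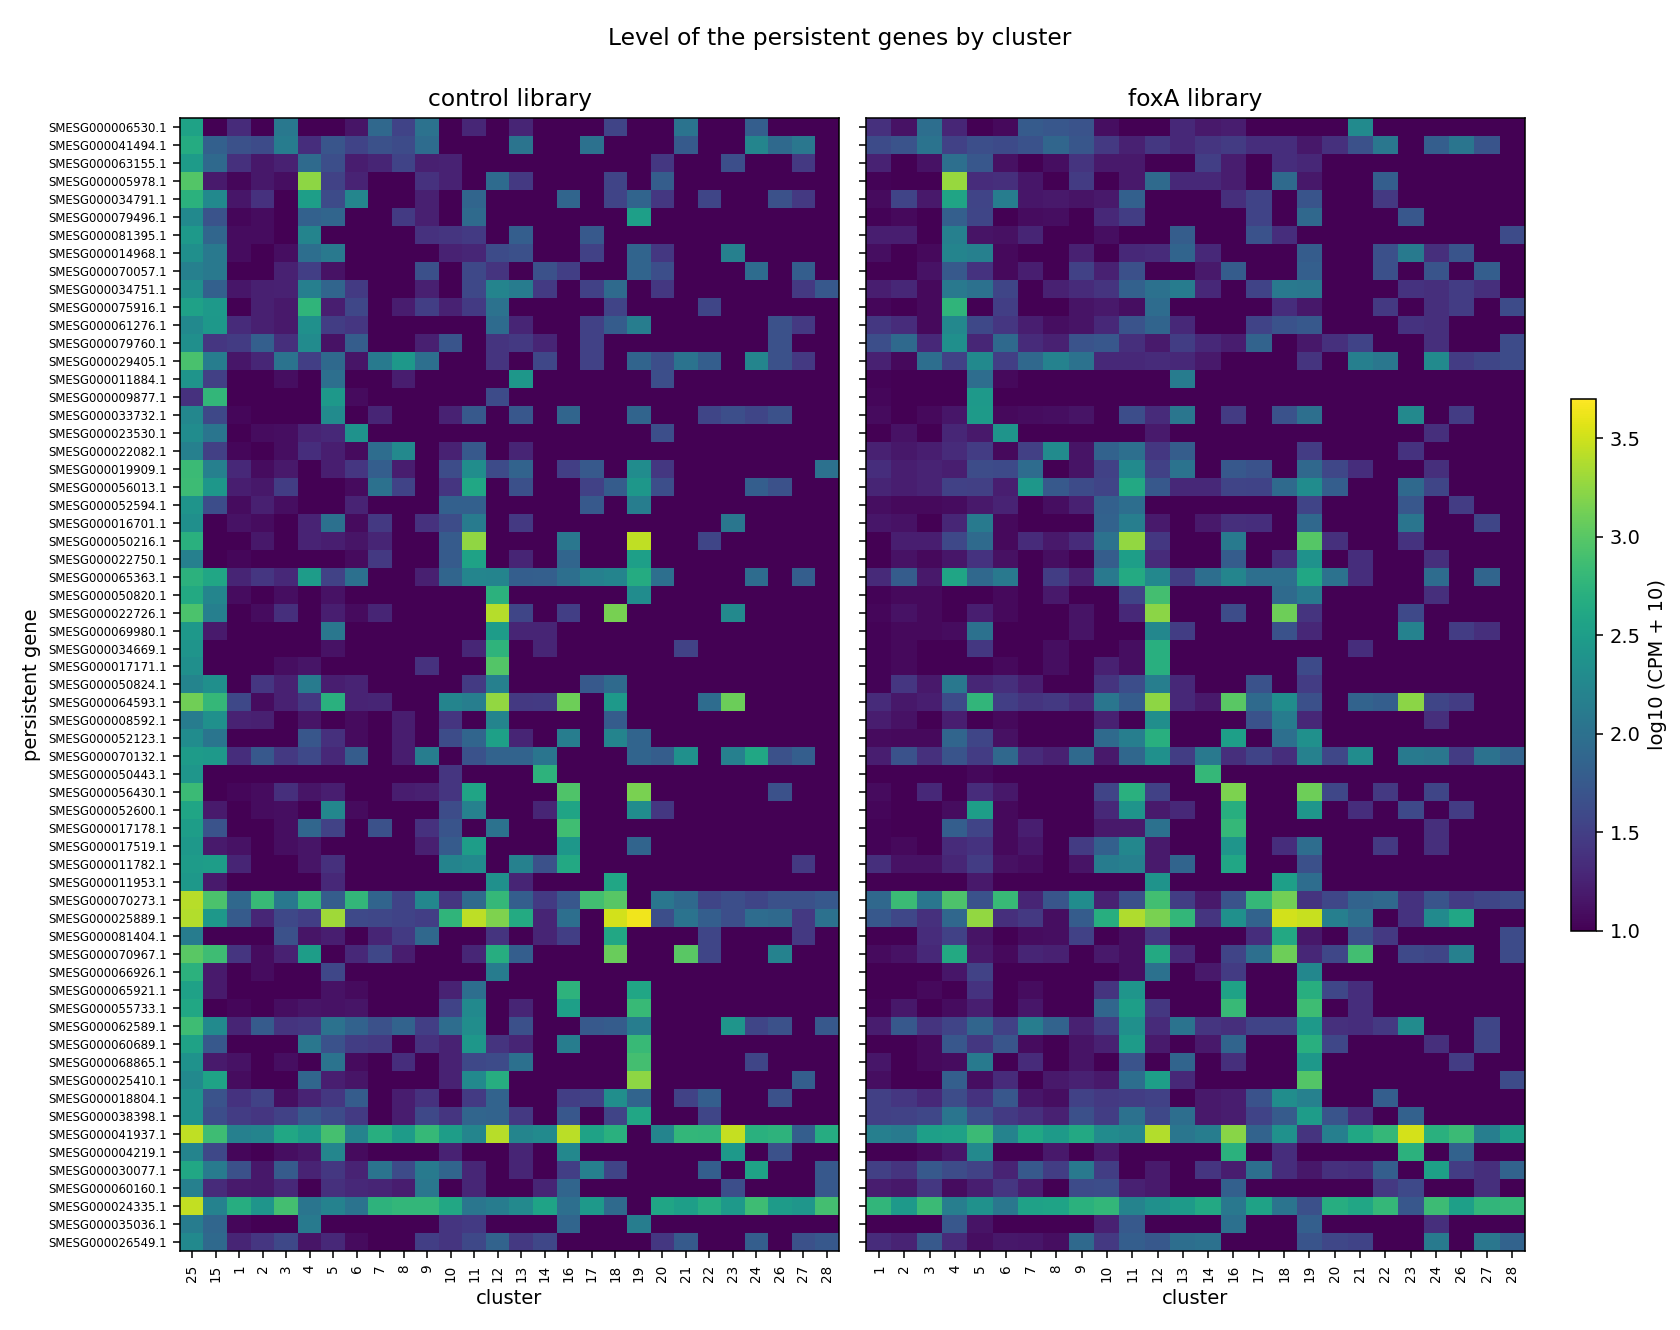
Rows are the 63 persistent genes, grouped by the cluster in which their foxA level placed them, and columns are the clusters of the control library (left, with clusters 25 and 15 first) and of the foxA library (right); colour gives log10 of CPM plus 10. Blocks of genes in clusters 4, 11, 12, 16 and 18 recur in both libraries, and the column of cluster 25 is bright for nearly every gene, SMESG000009877.1 excepted. The block of cluster 19 is less certain in the control library, where it rests on 20 cells and SMESG000066926.1 had 0 UMIs.

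Single marker genes gave a coarser picture than clusters. Cells with at least 5 UMIs of exactly 1 of 9 class markers covered a minority of cells, since 75.4% of control cells and 66.5% of foxA cells had none of these markers or of the lost one at that level. By these classes 40 of the 63 persistent genes were placed, against 29.5% of all persistent genes. The 111 foxA cells marked by SMESG000017804.1 took 16 of the 63 (25.4%, against 3.89% of all persistent genes). None of the 9 class markers leads cluster 11, 12, 16 or 18, so genes highest there have no class of their own. Some of the 16 were placed in cluster 19, and others in those clusters. SMESG000050820.1 had 124 CPM in the class and 777 CPM in cluster 12, and SMESG000050216.1 had 888 CPM and 1800 CPM in cluster 11. The 245 cells marked by SMESG000075230.1 took 12 (19%, against 8.47%), and the 303 cells marked by SMESG000002628.1 took 9 (14.3%, against 4.72%). More listed genes were placed at all, which by itself raises these shares. Among placed genes alone these classes took, in turn, 16, 12 and 9 of 40, beside 396, 862 and 480 of 2997. For SMESG000075230.1 the share was then close to that of all placed genes. The class marked by SMESG000075928.1 took 2 (3.17%, against 2.46%) and that marked by SMESG000029602.1 took 1 (1.59%, against 1.77%).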

How the data were processed

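The deposited values were counts of UMIs per gene and cell barcode, whole numbers that the authors had not normalized. Per the file headers the counting software was Cell Ranger 6.1.2, whereas the submitters' processing notes give version 7. The genome build, annotation and cell-calling settings are not given in the sources used here. The shallowest deposited cells had 286 UMIs among control and 440 among foxA cells. Per the labels' protocols, cDNA was digested with 30 guides against 16S ribosomal sequence and amplified for 10 further cycles.

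The 100 genes, the class markers and the lists were chosen with earlier results of these data known. Counts were summed over cells and scaled to CPM by the total. Ratios have exact conditional binomial intervals, counts exact Poisson intervals and shares exact Clopper-Pearson intervals, which cover counting error only, and PCR copies are removed only as far as UMIs allow. A count of 0 was taken to allow 3 counts, and folds given as at least a value refer to these 3 counts. The upper end of the exact Poisson interval for a count of 0 is 3.69, which gives smaller folds. Cells were clustered with scanpy 1.11.5 and igraph 0.11.9 (2000 variable genes, 30 components, 15 neighbours, Leiden resolution 0.5), both libraries together and without integration. The listed genes were among the genes available to the clustering, so their differences between clusters are descriptions. Doublets were not called, and cells with at least 5 UMIs of 2 or more class markers were left out of the marker classes. Simulated counts served only to check the code of the ranking and of the size classes. The genes planted there had far more UMIs in positive cells than most listed genes. The simulated ratios lay away from the limits between size classes. The check therefore does not cover genes with few UMIs or ratios near a limit. Genes named in the text are the 10 of highest rank, those next to rank 100, the 10 lost genes with most control UMIs, the 4 such reduced genes, and the persistent genes with the 10 highest ratios or most foxA UMIs; the further ones were named after their values were seen. TMM factors came from edgeR 4.0.16.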

Additional observations from a re-analysis of the deposited data

How the results depend on the processing

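No paired analysis was possible because there is a lone library for control and a lone one for foxA, so none could be left out either. Of the alternatives run, 58 results stayed within 1.5 times the main count and 10 did not. Apart from the list itself, totals were compared and not members. Placement by clusters, with 59 genes against 40 by marker classes, is thus among the 58 although the groups differ. The list itself kept 62 of 100 genes with at least 100 UMIs per gene, which equals the number of listed genes that reach that count, and 49 among cells with at least 500 genes. Other settings kept 72 to 97. The number of lost genes was 16 in the main analysis and ranged from 14 to 21 for the same 100 genes under the alternatives run. A list drawn with positive cells of cluster 25 only, also added later, had 12 lost, 17 reduced and 71 persistent genes. The number of reduced genes became 33 with a limit of 1.5-fold and 11 with 3-fold. Against control cells with 0 marker UMIs, 14 genes were higher at 1.5-fold and 3 at 3-fold, and 16 were lower when clusters 25 and 15 were left out of the control cells or 17 when left out of both libraries, alternatives chosen after seeing the data. Marker classes placed 13 persistent genes in cells thinned to 400 UMIs, where fewer genes reach 20 UMIs. At Leiden resolution 0.25, also added later, clusters 25 and 15 were joined and 1 cluster was absent from the foxA library in place of 2. They stayed apart at resolution 1 and with another seed, and with more variable genes as well, where 51.3% of cluster 15 stayed in its main group and 3 clusters were absent. Depth limits the genes with fewer than 20 UMIs in positive cells most, and their membership is uncertain.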

Other observations

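The lost genes of the whole series extended beyond the 100 genes described. Of 10524 genes with at least 50 control UMIs, 57 were lost by the 10-fold rule, and 28.1% of them were in the list. Of the other 41, 19 had over 80% of their control UMIs in clusters 25 and 15. Among these were SMESG000036225.1 and SMESG000033673.1, which lead cluster 15 and had 6 and 16 UMIs in the whole foxA library. The remaining 22 had less than 5% of their control UMIs in these clusters, so their control UMIs lay in other cells.

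Of the 26 clusters with more than 1 foxA cell, 25 had a higher median depth in the foxA library, whether or not they held persistent genes. In cluster 11, where 7 genes were placed, the median was 692.5 UMIs per control cell and 1721 per foxA cell. In cluster 12, where 10 were placed, it was 449 and 713.5 UMIs.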
